A study of Mus musculus with 12 samples.

Results

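The genes described here are 10 genes that fill, empty and sense the calcium store of the endoplasmic or sarcoplasmic reticulum: the pump inhibitors Pln (phospholamban) and Sln (sarcolipin), the pumps Atp2a1, Atp2a2 and Atp2a3, the release channels Ryr2, Ryr3 and Itpr1, the store buffer Casq2 and the store sensor Stim1. They were taken by gene symbol from tables of 55228 genes, and all 10 were found. Messenger RNA was sequenced from mesenchyme, the connective tissue and muscle layer, of the bladder and of the pelvic urethra of wildtype, untreated CD-1 mice at E14.5 and E18.5, counted in days of embryonic development. All embryos were female, those of a litter were pooled, and the epithelium had been pulled away with forceps after digestion in cold trypsin. Each of the 4 groups (E14.5 bladder, E14.5 urethra, E18.5 bladder, E18.5 urethra) held 3 libraries from independent litters, and the stated aim of the study was to find genes that differ between these compartments.

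A muscle cell contracts when calcium enters its cytosol and relaxes when calcium is removed. Pumps of the Atp2a family, known as SERCA pumps, return calcium to the store, small membrane peptides such as phospholamban and sarcolipin slow these pumps, ryanodine receptors and inositol trisphosphate receptors let calcium out, calsequestrin holds it inside, and Stim1 senses an empty store and opens entry channels of the cell surface. Atp2a1 and Sln are best known from striated muscle, Pln and Casq2 from heart and smooth muscle, and Atp2a2 from nearly all cells. The bladder wall forms a smooth muscle, and the urethra is ringed by both smooth muscle and a striated sphincter.

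Levels are in CPM, counts per 1000000 of the library total after TMM adjustment, and are given as mean ± SD with n = 3. A log2 difference is given ± SE with a plus sign for more RNA in bladder, or for more at E18.5 where stages are compared. A gene is called where edgeR's quasi-likelihood test gave an adjusted p under 0.05 over 18805 genes tested. Libraries held 21495169 to 36349777 counts, so that 3 counts, the upper limit a count of 0 allows, correspond to 0.0825 to 0.140 CPM, or to 0.165 to 0.279 CPM if counts are read as read pairs. At E14.5, replicate 1 of bladder and replicate 1 of urethra stood apart from the other litters of their group in the first 2 principal components, bladder on both and urethra mainly on the second, and each result that rests on them is also given without them. In whole tissue, fewer cells of a type and less RNA per cell cannot be told apart. Each stage was deposited as a table of its own, so that stage and table cannot be told apart.

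The marker genes of muscle set the background for the members. All 10 tested smooth muscle markers were called higher in bladder at E18.5 and 9 of 10 at E14.5, and their summed level ranged from 7979 to 10112 CPM in E14.5 bladder, 2267 to 4534 CPM in E14.5 urethra, 24951 to 44126 CPM in E18.5 bladder and 2959 to 3521 CPM in E18.5 urethra. Of 12 skeletal muscle markers, 6 were called higher in urethra and 3 in bladder at E18.5. Myog, a transcription factor that defines striated muscle precursors, was at 96.4 to 142 CPM in E18.5 urethra and at 0 to 0.576 CPM in E18.5 bladder. Acta1, Ckm and Tnnt3, which are also on the skeletal list and encode a muscle actin, a creatine kinase and a troponin, were the 3 that were higher in bladder. The summed skeletal level was 3113 to 5008 CPM in E18.5 bladder, 885 to 1299 CPM in E18.5 urethra, 19.8 to 284 CPM in E14.5 bladder and 11.8 to 147 CPM in E14.5 urethra, with replicate 1 the highest in both E14.5 groups. Most of the level in E18.5 bladder was Acta1, at 2342 to 3692 CPM. Of 6 heart markers, 5 were tested, and 2 at E14.5 and 3 at E18.5 were called higher in bladder and 0 higher in urethra. Their summed level was 36.9 to 77.3 CPM in E14.5 bladder, 5.65 to 14.3 CPM in E14.5 urethra, 173 to 319 CPM in E18.5 bladder and 71.8 to 99.6 CPM in E18.5 urethra. Most of it was the myosin light chain gene Myl4, at 153 to 287 CPM in E18.5 bladder, and Myh6 was at 12.9 to 26.5 CPM there, while Nkx2-5, the defining cardiac transcription factor, was at or below 0.215 CPM in all 12 libraries. The part of these cells in the members' values was not tested. Epithelial markers were present in all groups, at 258 to 1393 CPM in E14.5 bladder, 590 to 1335 CPM in E14.5 urethra, 7989 to 10653 CPM in E18.5 bladder and 2395 to 3546 CPM in E18.5 urethra.

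The members differed in which compartment held more of their mRNA. At E14.5, 3 of 10 members were called higher in bladder (Pln, Atp2a3, Itpr1), against 12.4% of all genes tested, and 1 higher in urethra (Ryr3), against 12.5%. At E18.5, 6 of 10 were called, against 34.8% of all genes: 4 were higher in bladder (Pln, Atp2a2, Itpr1, Stim1), as were 3482 of the 18805 genes, and 2 in urethra (Sln, Atp2a1), as were 3053. The replicate block, a model with a term for each replicate number within a stage, also called Atp2a3, Ryr3 and Casq2 higher in E18.5 bladder. The share of all genes called with that block is not given here, so these added calls are not weighed against it. Between the stages, the compartment difference of Ryr3 and Stim1 moved toward bladder, where 4.64% of all genes moved, and that of Atp2a3 toward urethra, where 4.03% did. From E14.5 to E18.5, 5 members rose in bladder (Atp2a2, Ryr3, Itpr1, Casq2, Stim1) and 0 fell, against 23.7% and 22.0% of all genes, and 5 rose in urethra (Sln, Atp2a1, Atp2a3, Casq2, Stim1) and 0 fell, against 13.6% and 10.8%. Pln and Sln passed the filter on low counts only through the groups in which they were high, so their calls carry no weight in these counts.

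**Figure D1:**
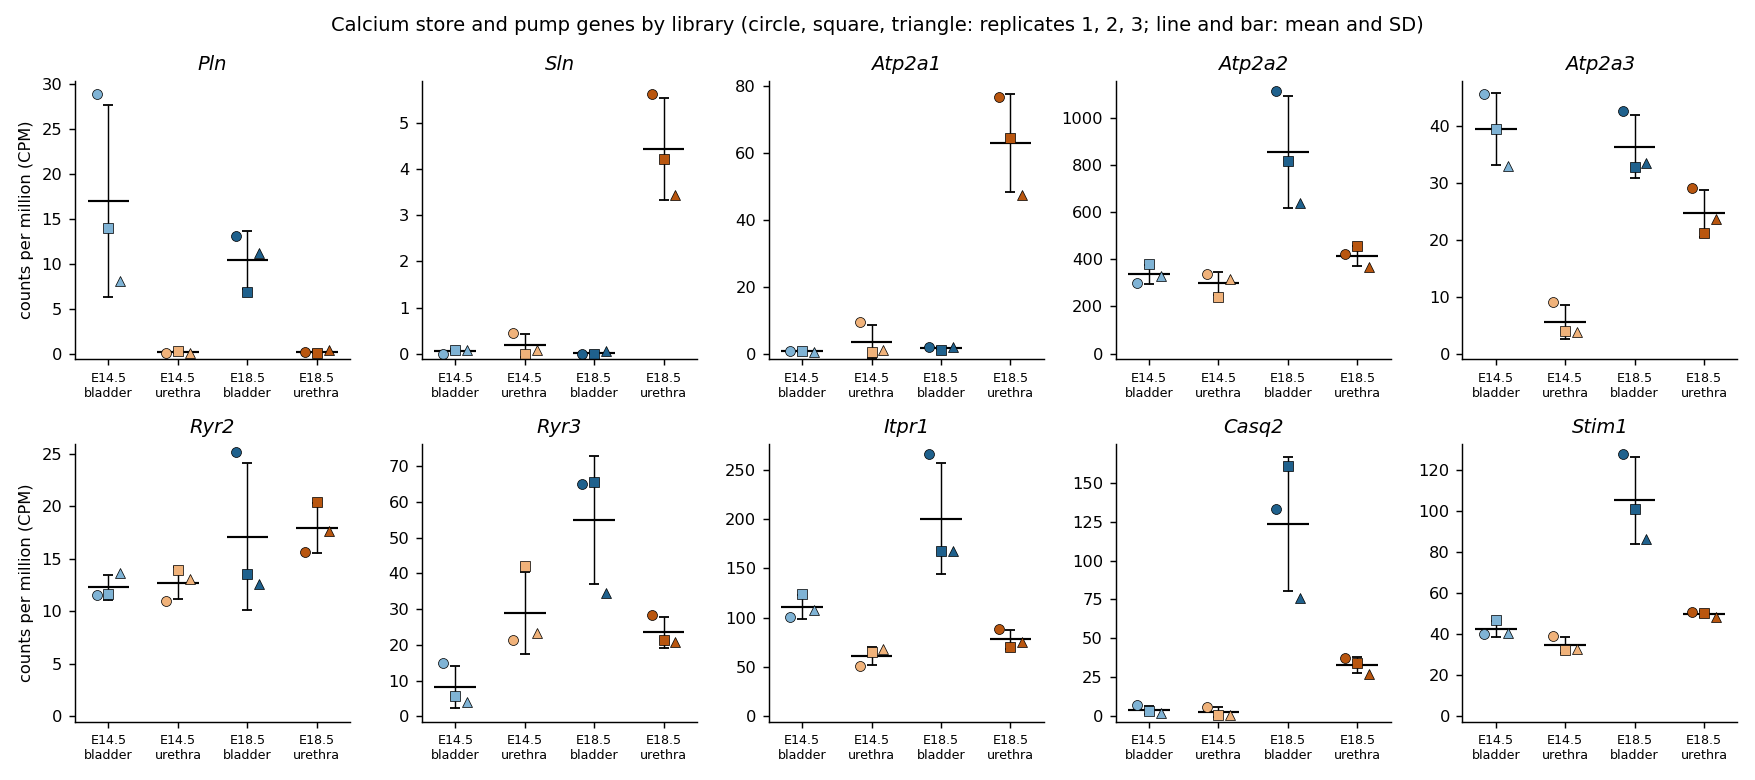
Level of each of the 10 genes in CPM (vertical axis, starting at 0 and scaled for each gene) in the 12 libraries, by stage and compartment; circles, squares and triangles are replicates 1, 2 and 3, and the line and bar are the mean and SD of 3 libraries. Pln is seen in bladder at both stages, Sln and Atp2a1 rise in E18.5 urethra, and Ryr2 is called in none of the 5 comparisons.

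At E18.5 the mRNAs of the pump inhibitors Pln and Sln were high in opposite compartments, while at E14.5 Sln was near the floor in both. Pln and Sln encode related single-span peptides. Their whole coding sequences, a small part of the exons over which reads were counted, are shown, although only mRNA was measured. In GRCm38, with the gene models of GENCODE M21, the Pln coding sequence lies in 1 stretch at chr10:53343864-53344022 on the plus strand and spells 52 codons, and that of Sln lies at chr9:53853473-53853568 on the plus strand and spells 31. Capitals mark, in Pln, codons 16 and 17, the serine and threonine whose phosphorylation relieves the pump, and in Sln the last 5 codons, the tail that faces the inside of the store.
Pln: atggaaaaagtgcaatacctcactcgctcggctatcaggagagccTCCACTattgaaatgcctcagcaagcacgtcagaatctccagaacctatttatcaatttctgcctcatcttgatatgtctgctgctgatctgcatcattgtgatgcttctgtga
Sln: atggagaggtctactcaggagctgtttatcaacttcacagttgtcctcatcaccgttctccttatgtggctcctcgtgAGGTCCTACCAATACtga

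Pln was at 28.8, 13.96 and 8.09 CPM in the E14.5 bladder libraries and at 0.0756, 0.262 and 0.0734 CPM in the E14.5 urethra libraries. At E18.5 it was at 13.1, 6.86 and 11.2 CPM in bladder and at 0.152, 0.0819 and 0.409 CPM in urethra. Every bladder library thus lay above every urethra library, and the urethra libraries held so few counts that several were under the limit set by 3 counts. The fitted log2 difference was 6.80 ± 0.68 at E14.5 (adjusted p = 8.87e-05) and 5.52 ± 0.64 at E18.5 (adjusted p = 5.39e-05). As Pln passed the low-count filter through bladder alone, the fit without a filter is given too, with adjusted p = 6.40e-05 at E14.5 and 7.46e-05 at E18.5. Summed over libraries, 1155 counts stood against 14 at E14.5, a ratio of 109.7 after scaling, and 828 against 22 at E18.5, a ratio of 48.1. In each library 2.06 to 2.51 times as many genes held exactly 2 counts as held 1, as would occur were the mates of a pair counted apart. With counts taken as read pairs, the exact 95% binomial intervals of these ratios, which cover counting error only, were 52.8 to 274 and 26.6 to 97.2. The change of the compartment difference (-1.27 ± 0.94, adjusted p = 0.444) and the change from E14.5 to E18.5 in bladder (-0.70 ± 0.48, adjusted p = 0.248) did not pass the test. Exons of genes on the opposite strand (Cep85l, Gm47644) cover 64.7% of the exon length of Pln, and no source says if reads were assigned by strand, so the level of Pln is uncertain. Cep85l itself was at 33.7 to 37.1 CPM in E14.5 bladder and 34.2 to 53.3 CPM in E14.5 urethra, and at 31.4 to 39.5 and 38.02 to 45.9 CPM at E18.5, so that its compartments overlapped at both stages. The log2 difference of Pln at E14.5 was 6.16 without bladder replicate 1, 7.74 without urethra replicate 2 and 5.90 without both libraries numbered 1, and at E18.5 it was 6.35 without urethra replicate 3.

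Sln was near the floor everywhere but in E18.5 urethra. It held 0, 2 and 2 counts in E14.5 bladder, 12, 0 and 2 in E14.5 urethra and 0, 0 and 2 in E18.5 bladder. In E18.5 urethra it held 222, 103 and 118 counts, or 5.63, 4.22 and 3.45 CPM. All 3 libraries of that group lay above the other 9. At E18.5, 443 counts in urethra stood against 2 in bladder, a ratio of 173 with an exact 95% binomial interval of 30.7 to 6856 over read pairs (fitted log2 difference -7.21 ± 1.08, adjusted p = 0.000288). Sln passed the low-count filter only through E18.5 urethra, and without a filter the adjusted p was 9.10e-05. In urethra it rose from 14 counts in all at E14.5 to 443 at E18.5, a ratio of 29.7 (14.1 to 74.5 over read pairs, adjusted p = 0.00239). Of those 14 counts, 12 came from replicate 1, the E14.5 urethra library in which Myog was also high, at 24.4 CPM against 1.67 and 3.60 CPM in the others. Without that library the fitted stage change was 6.96, and without E14.5 urethra replicate 2 it was 4.06. Without E18.5 bladder replicate 3, which held both of the bladder counts, the fitted difference at E18.5 was -9.94. At E14.5 both groups were near the floor, and the fitted difference there is not read as a fold. The change of the compartment difference was not called (-5.78 ± 2.03, adjusted p = 0.0995), but was called by DESeq2 (adjusted p = 0.00977) and limma-voom (adjusted p = 0.0224), without E14.5 urethra replicate 1 (adjusted p = 0.0163) and without both E14.5 libraries numbered 1 (adjusted p = 0.00612).

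The pumps differed in which of the 3 members carried the compartment difference. Atp2a2, the SERCA2 pump of smooth muscle and most other cells, was at 297, 380 and 328 CPM in E14.5 bladder and 336, 240 and 315 CPM in E14.5 urethra, and these groups overlapped (log2 difference 0.17 ± 0.19, adjusted p = 0.541). At E18.5 it was at 1111, 814 and 640 CPM in bladder and 421, 454 and 369 CPM in urethra, with no overlap. It was called higher in E18.5 bladder (1.04 ± 0.20, adjusted p = 0.00127) and rose in bladder from E14.5 to E18.5 (1.35 ± 0.20, adjusted p = 0.000184). In urethra its stage change was 0.48 ± 0.19 (adjusted p = 0.0916), and the change of its compartment difference was 0.87 ± 0.28 (adjusted p = 0.0699). The urethral change was called without E18.5 bladder replicate 1 (adjusted p = 0.0451) and in a fit of only the groups compared (adjusted p = 0.0401). The change of the difference was called by DESeq2 (adjusted p = 0.0448), without a low-count filter (adjusted p = 0.0455), without E14.5 urethra replicate 2 (adjusted p = 0.0422) and without E18.5 bladder replicate 3 (adjusted p = 0.0310).

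Atp2a1, the SERCA1 pump of fast striated muscle, was at 76.8, 64.5 and 47.6 CPM in E18.5 urethra, and in E18.5 bladder at 1.87, 1.18 and 1.86 CPM. It was higher in urethra (-5.25 ± 0.91, adjusted p = 0.00117) and rose there from E14.5 (4.15 ± 0.85, adjusted p = 0.00645). At E14.5 it was at 9.34, 0.523 and 0.955 CPM in urethra and 0.914, 0.829 and 0.346 CPM in bladder. The library at 9.34 CPM was urethra replicate 1, in which Mylpf, a light chain of striated muscle myosin, was at 12.2 CPM against 1.28 and 1.65 CPM in the other 2. The part of these markers in the Atp2a1 values was not tested. The E14.5 difference was -2.34 ± 0.94 (adjusted p = 0.0923). It was -0.052 without urethra replicate 1, whereas DESeq2 (adjusted p = 0.0378) and the fit without urethra replicate 2 (-2.88, adjusted p = 0.0307) called it. Without E14.5 urethra replicate 1 the rise in urethra was 6.44. The change of the compartment difference, not called over all libraries (-2.90 ± 1.28, adjusted p = 0.195), was then -5.19 (adjusted p = 0.000368), and with the replicate block it was -3.55 (adjusted p = 0.0356). In bladder, Atp2a1 did not pass the test between stages (1.25 ± 0.98, adjusted p = 0.320), but did without E14.5 urethra replicate 1 (adjusted p = 0.0140) or without both E14.5 libraries numbered 1 (1.49, adjusted p = 0.0124). Exons of Rabep2 on the opposite strand cover 21.9% of the Atp2a1 exon length, and Rabep2 was at 19.4 to 32.6 CPM in all 12 libraries.

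Atp2a3, the SERCA3 pump, best known from blood, endothelial and epithelial cells, began as a bladder gene and lost most of that difference. It was at 45.7, 39.5 and 33.04 CPM in E14.5 bladder and 9.04, 3.92 and 3.82 CPM in E14.5 urethra (2.82 ± 0.30, adjusted p = 0.00013). At E18.5 it was at 42.7, 32.8 and 33.5 CPM in bladder and 29.2, 21.1 and 23.7 CPM in urethra. The groups did not overlap at either stage. The E18.5 difference (0.56 ± 0.28) was not called (adjusted p = 0.150). With the replicate block, a term for each replicate number within a stage, it was called (0.56, adjusted p = 0.0416). Limma-voom (adjusted p = 0.0490), the fit without E14.5 urethra replicate 1 (adjusted p = 0.0208), the fit without both E14.5 libraries numbered 1 (adjusted p = 0.0175) and the fit of only the groups compared (adjusted p = 0.0356) also called it. Atp2a3 rose in urethra (2.15 ± 0.30, adjusted p = 0.000683), and its level in bladder was not called between stages (-0.12 ± 0.28, adjusted p = 0.754). The compartment difference itself changed by -2.26 ± 0.41 (adjusted p = 0.00639). Over the same groups, endothelial markers summed to 373 to 705, 288 to 460, 295 to 409 and 494 to 560 CPM in E14.5 bladder, E14.5 urethra, E18.5 bladder and E18.5 urethra, platelet markers to 17.6 to 18.7, 3.45 to 9.38, 29.9 to 41.5 and 22.6 to 62.4 CPM, and leukocyte markers to 57.7 to 69.3, 35.3 to 58.3, 108 to 123 and 109 to 116 CPM. Between the stages, 6 of 6 leukocyte markers rose in urethra, where 13.6% of all genes did, and 3 of 6 in bladder, where 23.7% did. At E14.5, 2 of the 6 were called higher in bladder and 0 in urethra, against 12.4% and 12.5% of all genes. At E18.5, 0 of 6 were called between compartments, against 34.8%. Beside the same shares, 2 of 6 endothelial markers were higher in bladder and 0 in urethra at E14.5, and 0 and 2 at E18.5. Between stages 2 rose and 0 fell in urethra, and 0 rose and 1 fell in bladder. Their compartment difference moved toward urethra for 3 and toward bladder for 0, against 4.03% and 4.64% of all genes. Of the epithelial markers, whose sums are given above, 11 of 11 rose in bladder and 6 of 11 in urethra, against 23.7% and 13.6% of all genes. The part of these cells in the Atp2a3 result was not tested.

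**Figure D2:**
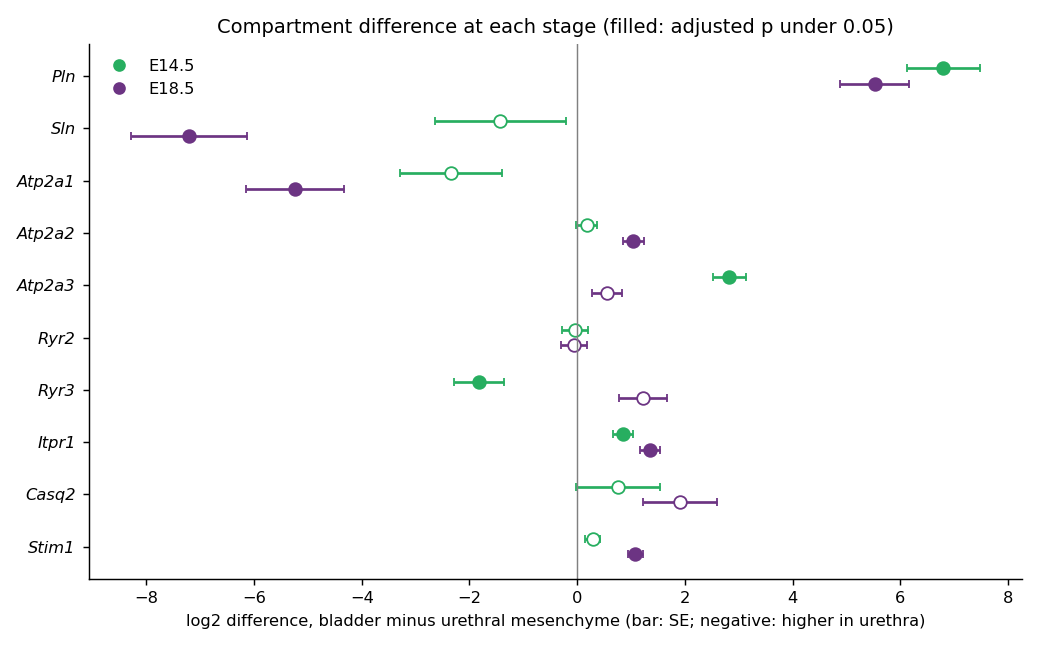
Log2 difference between bladder and urethral mesenchyme (horizontal axis, negative where urethra was higher) for the 10 genes at E14.5 and E18.5, with bars of 1 SE; filled points are called. Pln lies far to the bladder side at both stages, Sln and Atp2a1 lie far to the urethra side at E18.5, and Ryr3 changes side; the E14.5 point of Sln rests on groups near the floor.

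Per length of exon, the pump mRNA of every library was mostly Atp2a2. Its share of the summed level of the 3 pumps per exon length was 87.7 ± 2.69% in E14.5 bladder, 96.2 ± 3.08% in E14.5 urethra, 94.9 ± 0.901% in E18.5 bladder and 75.1 ± 3.10% in E18.5 urethra. E18.5 urethra was the group with the lowest share, at 71.5 to 76.9%, and its libraries did not overlap those of the other 3 groups. The remainder there was mainly Atp2a1, at 19.8 ± 2.78%, against 0.320 ± 0.146% in E14.5 bladder, 1.80 ± 2.34% in E14.5 urethra and 0.333 ± 0.126% in E18.5 bladder. Atp2a3 made up 11.997 ± 2.56% in E14.5 bladder, 2.03 ± 0.768% in E14.5 urethra, 4.77 ± 0.780% in E18.5 bladder and 5.17 ± 0.910% in E18.5 urethra. With only exon length free of opposite-strand exons, the Atp2a1 share in E18.5 urethra was 23.7% and that of Atp2a2 71.4%.

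Set against the pumps on the same scale, Pln reached 18.1, 7.20 and 4.87% of the summed pump level in E14.5 bladder and 2.48, 1.77 and 3.62% in E18.5 bladder. These bladder groups did not overlap, and in urethra Pln stayed at or below 0.235% in all 6 libraries. Over exon length free of opposite-strand exons, an alternative chosen after seeing the data, Pln reached 50.6, 20.1 and 13.6% in E14.5 bladder, 6.92, 4.95 and 10.1% in E18.5 bladder and at most 0.655% in urethra. Sln reached 4.41, 3.29 and 3.32% in E18.5 urethra and at most 0.577% in the other 9 libraries. These are ratios of mRNA per length and say nothing of the peptides.

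**Figure D3:**
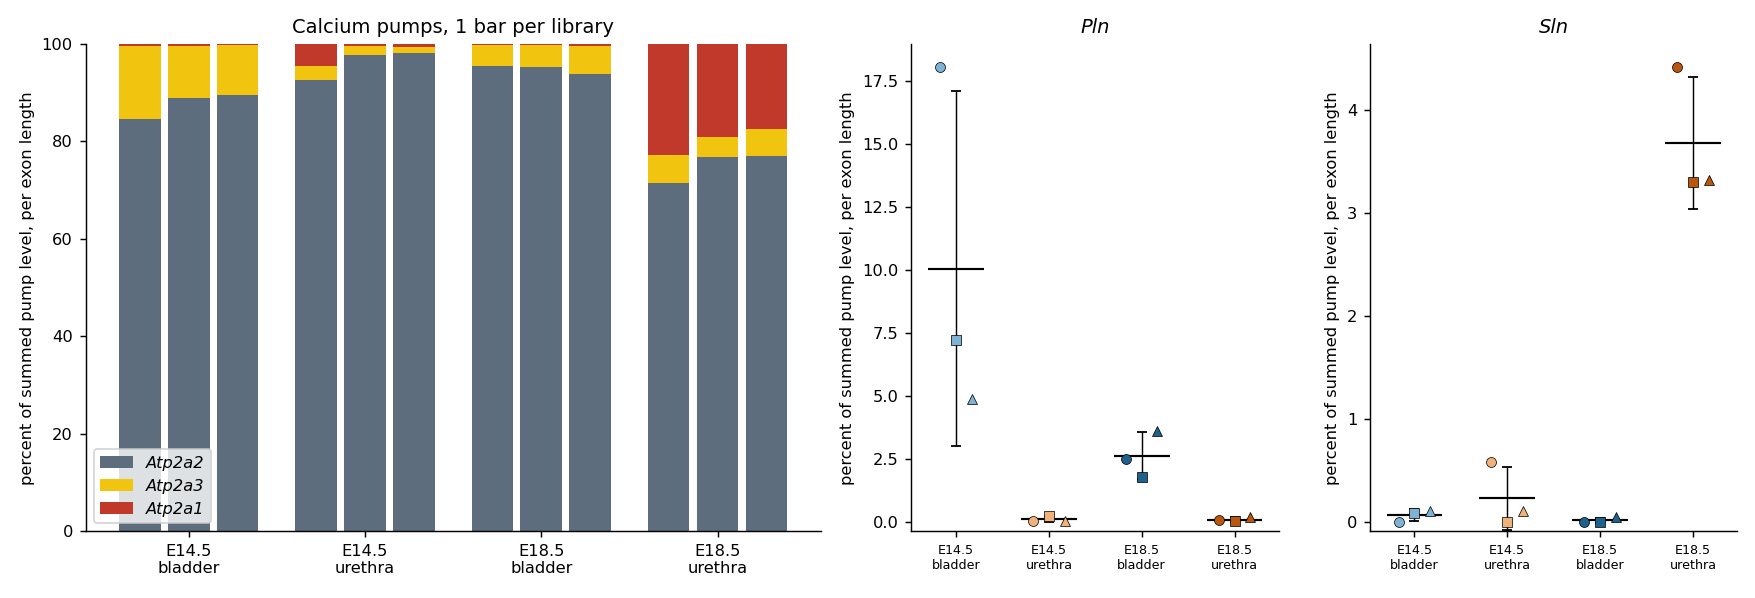
Left, share of each pump in the summed level of Atp2a1, Atp2a2 and Atp2a3 per exon length, 1 bar per library, in percent; middle and right, level of Pln and Sln per exon length as a percent of the summed pump level, with points for replicates 1 to 3 and the mean and SD. Atp2a1 makes up 17.4 to 22.8% in E18.5 urethra, where Sln is also high, and Pln is seen in bladder.

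The sequence before the Atp2a1 gene is shown because this pump was high in E18.5 urethra. RefSeq (GRCm38.p6) gave a promoter entry for 6 of the 10 members, Pln, Atp2a1, Atp2a3, Ryr2, Casq2 and Stim1. In the 250 bases before each start, both strands were searched for 3 motifs of muscle genes: the CArG box of serum response factor, the MEF2 motif, and CAGCTG, an E-box of the kind that myogenic factors bind. Of 32851 mouse promoter windows of that length, 1.47% held the CArG box, 2.92% the MEF2 motif and 13.0% CAGCTG. The E-box was found before 1 of the 6 members, Atp2a1, beginning 55 bases before the RefSeq start, the MEF2 motif before 1, Casq2, and the CArG box before 0. Beside 13.0% of all windows, 1 E-box among 6 members is not read as a result. The match is of letters only, and binding was not tested. The 215 bases that end at the first base before the deposited Atp2a1 gene model, at chr7:126463109-126463323 on the minus strand, read as follows, with the E-box in capitals.
Atp2a1: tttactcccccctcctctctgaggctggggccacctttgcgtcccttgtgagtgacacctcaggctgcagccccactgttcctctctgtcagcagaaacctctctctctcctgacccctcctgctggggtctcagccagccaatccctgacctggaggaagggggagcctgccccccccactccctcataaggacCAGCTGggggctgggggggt

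Of the release channels, 1 changed side, 1 was higher in bladder at both stages and 1 was called in no comparison. Ryr3, a ryanodine receptor found at low level in many tissues, was at 14.9, 5.80 and 3.94 CPM in E14.5 bladder and 21.3, 42.1 and 23.2 CPM in E14.5 urethra. At E18.5 it was at 64.9, 65.5 and 34.4 CPM in bladder and 28.4, 21.3 and 20.7 CPM in urethra. At E14.5 every urethra library lay above every bladder library, and at E18.5 every bladder library lay above every urethra library. The difference was called at E14.5 (-1.82 ± 0.46, adjusted p = 0.0172). It was not at E18.5 (1.22 ± 0.45, adjusted p = 0.0550). With the replicate block the E18.5 difference was called (1.18, adjusted p = 0.0436). The change between stages was 3.04 ± 0.65 (adjusted p = 0.0163), and Ryr3 rose in bladder by 2.74 ± 0.48 (adjusted p = 0.000873), while its change in urethra was -0.30 ± 0.44 (adjusted p = 0.668). Exons of Aven on the opposite strand cover 4.83% of the Ryr3 exon length.

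The calls of Ryr3 moved with single libraries. The E14.5 call was lost without bladder replicate 2 (adjusted p = 0.0668), bladder replicate 3 (adjusted p = 0.0506) or urethra replicate 2 (adjusted p = 0.0609) and without a low-count filter (adjusted p = 0.0593), which also ended the call of the change between stages (adjusted p = 0.0565). Without bladder replicate 1, the E14.5 difference was -2.58, the change between stages 3.81 and the rise in bladder 3.50, all called. Without both E14.5 libraries numbered 1 these values were -2.76, 3.98 and 3.50. At E18.5 the difference was called by DESeq2 (adjusted p = 0.0156) and limma-voom (adjusted p = 0.0152), without E14.5 bladder replicate 1 (adjusted p = 0.00777) or 3 (adjusted p = 0.0280), without E14.5 urethra replicate 2 (adjusted p = 0.0488), without E18.5 bladder replicate 3 (adjusted p = 0.0387), without both E14.5 libraries numbered 1 (adjusted p = 0.00493) and in the fit of only the groups compared (adjusted p = 0.00602).

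Itpr1, the inositol trisphosphate receptor that answers hormone and nerve signals in smooth muscle, was at 101, 124 and 107 CPM in E14.5 bladder and 50.9, 64.8 and 67.9 CPM in E14.5 urethra. At E18.5 it was at 266, 167 and 168 CPM in bladder and 88.96, 70.2 and 75.2 CPM in urethra. The compartments did not overlap at either stage. Bladder was higher at E14.5 (0.86 ± 0.18, adjusted p = 0.00613) and at E18.5 (1.36 ± 0.19, adjusted p = 0.000149), and the change between stages was not called (0.50 ± 0.26, adjusted p = 0.259). In bladder Itpr1 rose by 0.86 ± 0.18 (adjusted p = 0.0024), and in urethra its change was 0.35 ± 0.18 (adjusted p = 0.183).

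Ryr2, the ryanodine receptor of heart muscle that is also found in smooth muscle, was called in none of the 5 comparisons. It was at 11.6, 11.6 and 13.7 CPM in E14.5 bladder, 10.97, 13.9 and 13.1 CPM in E14.5 urethra, 25.2, 13.6 and 12.6 CPM in E18.5 bladder and 15.6, 20.4 and 17.7 CPM in E18.5 urethra. The compartments overlapped at both stages, whereas the stages overlapped in bladder and not in urethra. The compartment comparison gave log2 differences of -0.045 ± 0.24 (adjusted p = 0.913) and -0.064 ± 0.24 (adjusted p = 0.872). Between stages its log2 change was 0.48 ± 0.24 in bladder (adjusted p = 0.126) and 0.50 ± 0.24 in urethra (adjusted p = 0.154), the latter called without E18.5 bladder replicate 1 (adjusted p = 0.0488).

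Set beside the 3 release channels that are not members, and scaled to exon length, Itpr1 made up 51.0 ± 6.14% of the summed level of 6 channels in E14.5 bladder, 35.5 ± 2.92% in E14.5 urethra, 39.8 ± 3.72% in E18.5 bladder and 25.6 ± 1.39% in E18.5 urethra. Itpr3 supplied much of the rest, at 34.9, 29.3, 41.2 and 38.4% in the same order of groups. Ryr3 held 3.55 ± 2.38, 15.99 ± 5.12, 10.8 ± 3.85 and 7.40 ± 0.842%, and Ryr2 between 2.13 and 4.68%. Ryr1, the channel of skeletal muscle, held 1.21 ± 0.669% in E18.5 bladder and 11.8 ± 2.72% in E18.5 urethra.

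Casq2, calsequestrin 2, a calcium buffer of the heart and smooth muscle store, had the largest called rise of the 10 members in bladder. It was at 7.04, 3.11 and 2.08 CPM in E14.5 bladder and 133, 161 and 76.03 CPM in E18.5 bladder (4.92 ± 0.80, adjusted p = 0.000594). In urethra it was at 6.13, 0.549 and 0.734 CPM at E14.5 and 37.4, 34.1 and 27.2 CPM at E18.5 (3.78 ± 0.78, adjusted p = 0.00655). The stages did not overlap in either compartment. In urethra 12 of 12 skeletal, 0 of 10 smooth muscle and 2 of 5 tested heart markers rose, where 13.6% of all genes did, and 1 smooth muscle marker fell. In bladder 6 of 12, 9 of 10 and 3 of 5 rose, where 23.7% did. The part of these cells in the Casq2 values was not tested. Without E14.5 bladder replicate 1 the rise in bladder was 5.58, and without E14.5 urethra replicate 1, the library with high Myog, the rise in urethra was 5.69.

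Between compartments, Casq2 missed the threshold at both stages. At E18.5 the bladder libraries all lay above the urethra libraries, with a difference of 1.91 ± 0.68 (adjusted p = 0.0515). With the replicate block it was 1.85 (adjusted p = 0.00171), limma-voom gave 1.85 (adjusted p = 0.000573), and the fit of only the groups compared gave adjusted p = 0.000646. A stricter low-count filter (adjusted p = 0.0482) and leaving out both E14.5 libraries numbered 1 (adjusted p = 0.0000893) or any single E14.5 library other than bladder replicate 2 (adjusted p from 0.00331 to 0.0465) also called it. At E14.5 the groups overlapped (0.76 ± 0.77, adjusted p = 0.502). Without urethra replicate 1 the E14.5 difference was 2.67 (adjusted p = 0.0114), without both libraries numbered 1 it was 2.02 (adjusted p = 0.00671), and without bladder replicate 1 it was 0.11 (adjusted p = 0.939). Its share of the 2 calsequestrins per exon length was 25.1 ± 9.996% in E14.5 bladder, 9.80 ± 3.24% in E14.5 urethra, 65.6 ± 5.64% in E18.5 bladder and 57.5 ± 0.872% in E18.5 urethra, the rest being Casq1.

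The 250 bases before the deposited Casq2 gene model, at chr3:102086165-102086414 on the plus strand, hold the 1 match to the MEF2 motif among the 6 members, beginning 69 bases before the start. They are shown with that match in capitals. A match describes letters and is no evidence of binding.
Casq2: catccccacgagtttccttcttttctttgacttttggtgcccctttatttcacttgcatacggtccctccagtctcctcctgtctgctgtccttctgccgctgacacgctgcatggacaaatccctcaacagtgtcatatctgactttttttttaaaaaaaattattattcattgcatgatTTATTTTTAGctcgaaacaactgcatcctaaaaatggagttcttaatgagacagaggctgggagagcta

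Stim1, the sensor that opens entry channels when the store empties, was at 39.996, 46.9 and 40.7 CPM in E14.5 bladder and 39.1, 32.5 and 32.8 CPM in E14.5 urethra. These groups did not overlap, but their difference was not called (0.29 ± 0.14, adjusted p = 0.151). At E18.5 Stim1 was at 128, 101 and 86.7 CPM in bladder and 50.6, 50.5 and 48.3 CPM in urethra, and bladder was higher (1.08 ± 0.14, adjusted p = 0.000109). It rose in bladder by 1.31 ± 0.14 (adjusted p = 2.81e-05) and in urethra by 0.52 ± 0.14 (adjusted p = 0.0191), and the compartment difference grew by 0.79 ± 0.20 (adjusted p = 0.0291). That growth was no longer called without any one of E14.5 bladder replicate 3, E14.5 urethra replicate 1, E18.5 bladder replicate 1 and the 3 E18.5 urethra libraries (0.62 to 0.80, adjusted p from 0.0571 to 0.0728), nor without both E14.5 libraries numbered 1 (0.67, adjusted p = 0.0707). The rise in urethra was not called without E14.5 urethra replicate 2 (adjusted p = 0.0545) or 3 (adjusted p = 0.0789) or E18.5 urethra replicate 1 (adjusted p = 0.0520) or 2 (adjusted p = 0.0594).

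**Figure D4:**
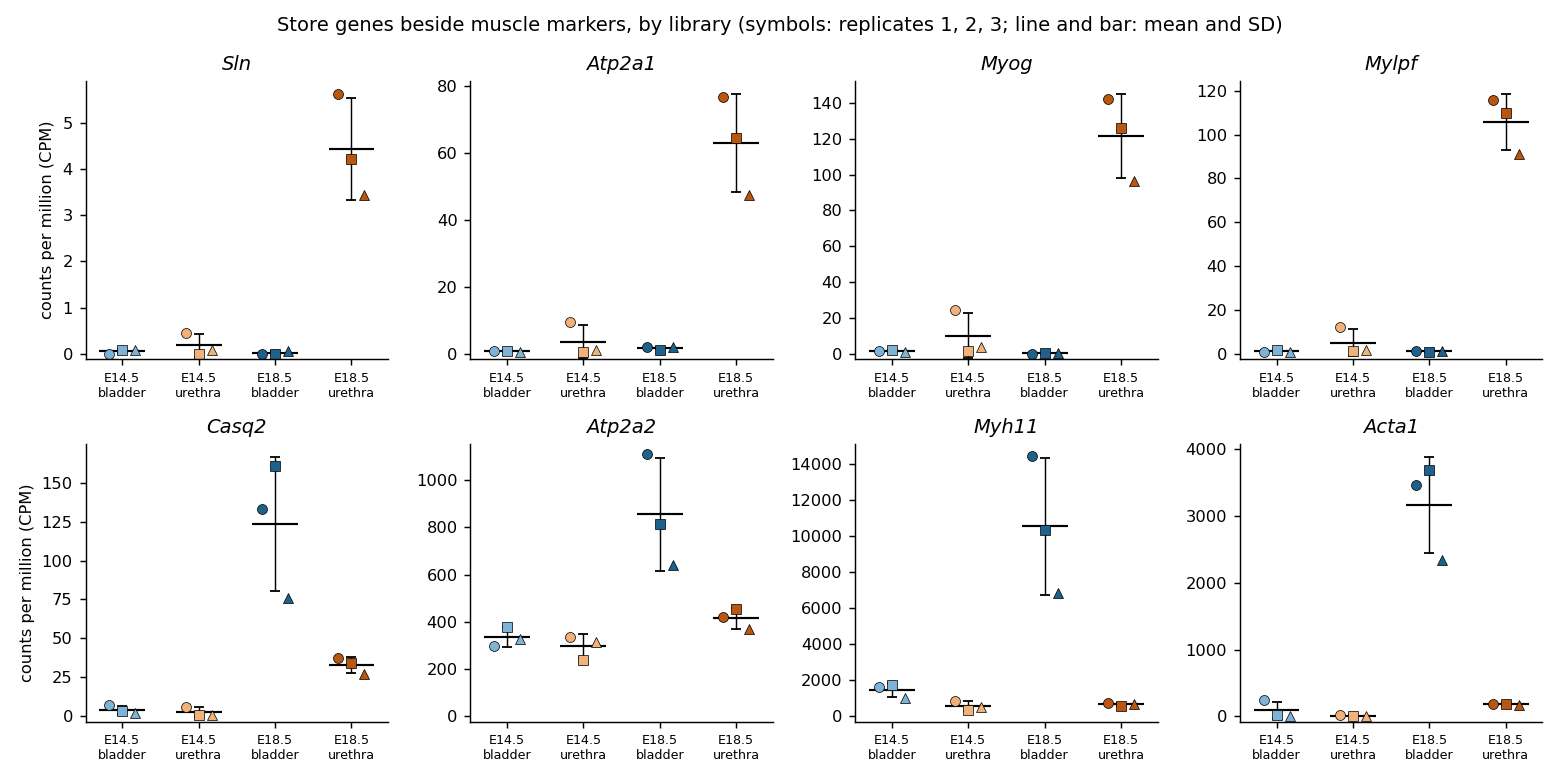
Levels in CPM (vertical axes, starting at 0 and scaled for each gene) of Sln, Atp2a1, Casq2 and Atp2a2 beside the muscle genes Myog, Mylpf, Myh11 and Acta1 in the 12 libraries; circles, squares and triangles are replicates 1, 2 and 3, and the line and bar are the mean and SD. Sln and Atp2a1 are high in the E18.5 urethra libraries, where Myog is at 96.4 to 142 CPM. Casq2 and Atp2a2 are high in E18.5 bladder, where Myh11 is at 6847 to 14439 CPM. The compartments of Casq2 did not overlap at E18.5. Its difference there missed the threshold in the main edgeR quasi-likelihood test (adjusted p = 0.0515) and was called in several alternatives. Acta1, of the skeletal list, is at 2342 to 3692 CPM in E18.5 bladder and 165 to 190 CPM in E18.5 urethra, the opposite side to Myog.

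Ordered by level per kilobase of exon, Atp2a2 led in all 4 groups, at 55.1 CPM per kb in E14.5 bladder, 48.9 in E14.5 urethra, 140.6 in E18.5 bladder and 68.2 in E18.5 urethra, with no overlap with the next gene. The exon length joins all exons listed for a gene and can exceed that of a single mRNA, so the order is approximate. In E14.5 bladder Atp2a3 (7.46), Pln (6.15) and Itpr1 (6.05 CPM per kb) followed and overlapped from neighbour to neighbour, then Stim1 (4.10), Casq2 (1.49), Ryr3 (0.434), Ryr2 (0.426), Atp2a1 (0.200) and Sln (0.0428). In E14.5 urethra Stim1 (3.35) and Itpr1 (3.34) overlapped and stood above Ryr3 (1.52), Atp2a3 (1.06), Atp2a1 (1.04), Casq2 (0.903) and Ryr2 (0.440 CPM per kb), whose neighbours all overlapped, and Sln (0.133) and Pln (0.0496) were last.

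In E18.5 bladder Casq2 was second (45.1 CPM per kb), clear of its neighbours, followed by Itpr1 (10.9) and Stim1 (10.2), which overlapped, and by Atp2a3 (6.88), Pln (3.76), Ryr3 (2.89), Ryr2 (0.594), Atp2a1 (0.470) and Sln (0.0162). In E18.5 urethra Atp2a1 was second (18.1) and Casq2 came next (12.03), both clear of their neighbours. Stim1 (4.80), Atp2a3 (4.67), Itpr1 (4.27) and Sln (3.36) overlapped from neighbour to neighbour, and Ryr3 (1.24), Ryr2 (0.622) and Pln (0.0777) came last. Over exon length free of opposite-strand exons, Pln was at 17.4 CPM per kb in E14.5 bladder and 10.7 in E18.5 bladder, so its place in the order depends on how that overlap was counted.

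Genes with a like pattern were sought among 14078 genes with a mean of at least 1 CPM, by the root mean square difference of log2 CPM, centred on each gene's mean, over the 12 libraries. Nearest to Pln were Gata4, a zinc finger transcription factor (0.80), Tm4sf5 (1.00) and Popdc2, a membrane protein of muscle (1.16). Gata4 was at 14.7 CPM in E14.5 bladder, 0.349 in E14.5 urethra, 8.33 in E18.5 bladder and 0.100 in E18.5 urethra. Nearest to Sln were Rapsn (0.42), which clusters receptors at the nerve-muscle endplate, Klhl41 (0.53) and the giant sarcomere protein gene Neb (0.54). Nearest to Atp2a1 were Neb (0.46), Actn2 (0.51) and Synpo2l (0.58), genes of the striated muscle Z-disc and thin filament. Sln and Atp2a1 thus shared Neb, which was at 56.9 CPM in E18.5 urethra and 1.35 CPM in E18.5 bladder. Nearest to Casq2 were Trdn (0.68), the triadin that holds calsequestrin at the release channel, the myosin heavy chain gene Myh6 (0.68) and Slc44a4 (0.69). Ryr2 lay nearest to Arhgap21 (0.21), Chml (0.22) and Med13l (0.22). Near to Ryr3 were the kinase gene Wnk2 (0.46) and Ttc6 (0.47).

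The 7 pathway lists held 59 other calcium genes of the tables, of which 58 were tested. Together 16 were called higher in bladder and 10 in urethra at E14.5, and 18 and 23 at E18.5, against 2335 and 2342, and 3482 and 3053, of all 18805 genes, and with median log2 differences of 0.037 and 0.080 against -0.0035 and 0.047 for all genes tested. Among 4 tested pump regulators, Mrln, the myoregulin peptide that inhibits the striated muscle pump, was at 0.103 ± 0.0268 CPM in E18.5 bladder and 2.85 ± 0.574 CPM in E18.5 urethra (adjusted p = 5.47e-05), the side of Sln, with a bladder level near the floor. Asph, which spans the junctin protein of the store membrane, was higher in E14.5 bladder (1.05 ± 0.17, adjusted p = 0.00113). In all, 2 of the 4 were called higher in bladder and 1 in urethra at E14.5, and 2 and 2 at E18.5. Mrln, at a mean of 0.304 CPM or less in the other groups, passed the low-count filter through E18.5 urethra. Its calls thus carry no weight in these counts. The E14.5 call of Mrln, at 0.0745 against 0.304 CPM (adjusted p = 0.0425), was lost by limma-voom (adjusted p = 0.0544), without a filter (adjusted p = 0.0710) with the replicate block (adjusted p = 0.0723) and without most single libraries, and that of 1810037I17Rik (0.76, adjusted p = 0.0298) without any one of 4 E14.5 libraries (adjusted p from 0.0726 to 0.101) or without both numbered 1 (adjusted p = 0.146).

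Of 15 other release channel and triad genes, 6 were called higher in bladder and 1 in urethra at E14.5, where 12.4% and 12.5% of all genes were, and 5 and 9 at E18.5, where 3482 and 3053 of 18805 were. Jph2, the junctophilin that ties the store of heart and smooth muscle to the surface membrane, was at 269 ± 41.3 against 74.4 ± 31.9 CPM at E14.5 (1.86 ± 0.30, adjusted p = 0.00133) and 504 ± 143 against 72.98 ± 1.30 CPM at E18.5 (2.79 ± 0.31, adjusted p = 4.35e-05), the side of Itpr1. Mrvi1, a partner of Itpr1 in nitric oxide signalling, was higher in E14.5 bladder (1.35 ± 0.19, adjusted p = 0.000579). On the other side, Ryr1 was higher in urethra at E14.5 (-1.36 ± 0.28, adjusted p = 0.00473) and Jph3, the junctophilin of neurons, at E18.5 (-3.45 ± 0.58, adjusted p = 0.000715). Neuronal markers were called higher in urethra for 8 of 8 genes at both stages, with sums of 567 to 1568 CPM in E18.5 urethra against 57.03 to 137 CPM in E18.5 bladder, and their part in the Jph3 difference was not tested.

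Of the other store buffers, 7 of 10 were called higher in bladder at E14.5 and 0 in urethra, against 12.4% and 12.5% of all genes, with a median of 0.54. At E18.5 the counts were 4 and 1, against 3482 and 3053 of 18805 genes. Rcn3, a secretory pathway chaperone, was at 560 ± 83.3 against 221 ± 34.1 CPM at E14.5 (1.34 ± 0.15, adjusted p = 0.000147), and Calr, the general buffer calreticulin, at 1132 ± 218 against 738 ± 33.95 CPM (0.62 ± 0.14, adjusted p = 0.00868). Rcn2 was lower in bladder at E18.5 (-0.62 ± 0.13, adjusted p = 0.00224).

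Of 10 other store-operated entry genes, 1 was called higher in bladder and 2 in urethra at E14.5, against 12.4% and 12.5% of all genes, and 2 and 4 at E18.5, against 3482 and 3053 of 18805. The urethral calls at E14.5, Trpc6 (adjusted p = 0.0458) and Orai2 (adjusted p = 0.0388), were lost without a filter (adjusted p = 0.0990 and 0.105) and in the fit of only the groups compared (adjusted p = 0.118 and 0.0942), and Orai2 also with the replicate block (adjusted p = 0.0745). Both were also lost without most single libraries. Orai3, an entry channel that Stim1 opens, was higher in E14.5 bladder (0.64 ± 0.13, adjusted p = 0.00466), and the cation channel gene Trpc6 (-1.44 ± 0.29, adjusted p = 0.00203) was higher in E18.5 urethra, the opposite side to Stim1. Saraf, an inhibitor of store-operated entry, was called at neither stage (adjusted p = 0.903 and 0.534).

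Of 8 plasma membrane pumps and exchangers, 0 were called higher in bladder and 1 in urethra at E14.5, against 12.4% and 12.5% of all genes, and 2 and 2 at E18.5, against 3482 and 3053 of 18805. The exchanger gene Slc8a3 was higher in urethra at E14.5 (-1.94 ± 0.34, adjusted p = 0.00182) and E18.5 (-2.78 ± 0.35, adjusted p = 8.66e-05), and the pump gene Atp2b4 was at 707 ± 286 against 167 ± 17.2 CPM at E18.5 (2.08 ± 0.25, adjusted p = 6.88e-05). Of 9 voltage-gated channel subunits, beside the same shares of all genes, 0 were called higher in bladder and 4 in urethra at E14.5, and 2 and 5 at E18.5. Cacna1s, the channel that gates Ryr1 in skeletal muscle, was at 0.0571 ± 0.0540 CPM in E18.5 bladder and 10.9 ± 3.20 CPM in E18.5 urethra (adjusted p = 0.00173). Its bladder libraries were at or near the floor, so no fold is given. Cacnb1, its beta subunit, was higher in urethra at E14.5 (-1.003 ± 0.24, adjusted p = 0.0109) and E18.5 (-1.60 ± 0.25, adjusted p = 0.000326). Of the 2 Golgi pumps, Atp2c1 was higher in E18.5 bladder (0.60 ± 0.11, adjusted p = 0.000943) and 1, Atp2c2, was called higher in urethra at E14.5 (-1.84 ± 0.45, adjusted p = 0.0123), a call lost without bladder replicate 2 (adjusted p = 0.0515) and in the fit of only the groups compared (adjusted p = 0.0521), while the difference was -2.71 without bladder replicate 1.

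In GRCm38, the genes lie at chr10:53337667-53345987 (Pln), chr9:53850164-53854560 (Sln), chr7:126445858-126463108 (Atp2a1), chr5:122453513-122502225 (Atp2a2), chr11:72961169-72993044 (Atp2a3), chr13:11553102-12106945 (Ryr2), chr2:112631355-113217096 (Ryr3), chr6:108213096-108551109 (Itpr1), chr3:102086415-102146514 (Casq2) and chr7:102267806-102437319 (Stim1). Their exons, on which reads were counted, sum to between 1318 bases in Sln and 28790 in Ryr2. Of the members not yet described for it, Atp2a2 and Itpr1 share 1.36% and 1.58% of their exon length with genes of the opposite strand, and Sln, Atp2a3, Ryr2, Casq2 and Stim1 share 0.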

How the data were processed

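The authors deposited unnormalized read counts by gene, with E14.5 and E18.5 in a table each (2 tables), together with exon coordinates and exon length per the file headers. Per the labels' protocols, mRNA was selected by poly(A) for a directional kit and read as 100 bp pairs. HISAT2 2.2.1, SAMtools 1.9, bcl2fastq and GRCm38 are named in the submitters' processing notes. The counter, whether it used strand, and its annotation are not given in the sources used here. Counts were scaled by TMM, kept by filterByExpr (minimum count 10, 18805 genes) and tested in edgeR 4.0.16 (R 4.3.3) with robust quasi-likelihood F tests in 1 model of 4 group means (8 residual degrees of freedom), with Benjamini-Hochberg adjustment within each comparison. Levels between genes were compared per kilobase of the deposited exon length. That length joins all exons listed for a gene and can exceed that of a single mRNA, so orders and shares between genes are approximate. Alternatives used DESeq2 1.42.0, limma-voom (limma 3.58.1), median-ratio size factors, no filter or a stricter one (a mean of at least 1 CPM and at least 10 counts in every library of a group), left-out libraries, only the groups compared, the replicate block, and exon length free of opposite-strand exons (for pump shares and for Pln and Sln against the pumps, chosen after seeing the data). Scripts were tested on simulated data.

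The members and lists were chosen with earlier results of these data known. Named were all members, for each of 7 pathway lists and each compartment comparison up to 3 called genes of largest difference and the most abundant gene not called, and the 3 genes most like each of 6 members; for length the text leaves some of the pathway genes out, and some genes are not reported here. Smooth muscle, skeletal muscle, heart, epithelial, neuronal, endothelial, platelet, glial, leukocyte, mesothelial and mesenchymal markers were summed as CPM. No label ties a replicate number to a litter. As a check of pairing, each library's deviation from its group mean was correlated with that of the library of the same number in the other compartment. At E18.5 r was 0.197, 0.193 and 0.286, and numbers were taken to pair the samples. At E14.5 r was 0.191, -0.028 and 0.206, and numbers were not taken to pair them. Libraries of unlike number had r from -0.136 to -0.0852 at E18.5 and from -0.265 to 0.133 at E14.5. Deviations within a group of 3 cancel out, so these values are not independent. The main model leaves pairing out at both stages. Between compartments, the replicate block pairs same-numbered libraries at both stages. Its values at E14.5 and for the change of the difference thus rest on a pairing that was not taken to hold at E14.5.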

Additional observations from a re-analysis of the deposited data

Results flagged for a closer look

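For 3 members the compartment difference itself changed between the stages by edgeR's quasi-likelihood test of that change. It changed by -2.26 (SE 0.41, adjusted p = 0.00639) for Atp2a3, from 2.82 at E14.5 to 0.56 at E18.5, by 3.04 (SE 0.65, adjusted p = 0.0163) for Ryr3, from -1.82 to 1.22, and by 0.79 (SE 0.20, adjusted p = 0.0291) for Stim1, from 0.29 to 1.08. Those of Ryr3 and Stim1 were lost under alternatives given above.

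Of the other calcium genes named by the rule, 6 that changed in the same test are given here. The shift was toward urethra for Srl, a store glycoprotein of striated muscle (-1.39, adjusted p = 0.00998), Rcn3 (-0.91, adjusted p = 0.0195) and the channel gene Cacna1d (-1.10, adjusted p = 0.0345). It was toward bladder for Atp2b4 (1.41, adjusted p = 0.0256), the T-type channel gene Cacna1h (1.54, adjusted p = 0.0332) and Atp2c1 (0.81, adjusted p = 0.00762).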

How the results depend on the processing

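Over all alternatives run, 3 to 5 members were called at E14.5, 6 to 9 at E18.5, 2 to 5 for the change of the difference, 5 to 6 in bladder and 4 to 7 in urethra between stages. The change of the difference was called for 5 members by DESeq2 instead of 3. With the replicate block, 4, 9, 4, 5 and 5 members were called in that order, without the share of all genes beside them. The block changed no member's call beyond those given for Atp2a1, Atp2a3, Ryr3 and Casq2. For the stage comparisons it matched numbers across stages, whose embryos differ, so those counts are no check of pairing. Over all genes, 4677, 1631 and 4586 calls (E14.5, change of the difference, urethra between stages) ranged over 2721 to 5546, 999 to 2578 and 2351 to 5312; the lowest came without E14.5 bladder replicate 3 (2721 and 999) and without E14.5 urethra replicate 3 (2351), DESeq2 and leaving out both E14.5 libraries numbered 1 gave 2578 and 2526 for the change, and the fit of only the E14.5 groups gave 3022. At E18.5, 6535 calls over all genes ranged over 5133 to 7295, and in bladder between stages 8597 ranged over 6637 to 9282. Direction turned only for uncalled values. Leaving out 1 library at a time, log2 values ranged at E14.5 from -2.10 to 0.80 (Sln), -0.14 to 0.027 (Ryr2), -0.17 to 0.048 (Rcn2), -0.075 to 0.20 (Srl), -0.16 to 0.15 (Saraf) and -0.48 to 0.096 (Cacna1h), at E18.5 from -0.45 to 0.12 (Ryr2), for the change from -0.41 to 0.16 (Ryr2) and -0.77 to 1.79 (Casq2), in bladder between stages from -0.25 to 0.012 (Atp2a3), and in urethra from -0.48 to 0.080 (Ryr3) and -0.25 to 1.52 (Pln). Without both E14.5 libraries numbered 1 they were 1.31 (Sln), 0.096 (Rcn2), 0.12 (Saraf), 0.047 and -0.12 (change of Ryr2 and Casq2) and 0.010 (Atp2a3); the cause was not tested. For named pathway genes, 411 of 478 values at E14.5 and 479 of 499 at E18.5 kept direction and call. With 3 libraries a group, differences of genes near the floor, such as Sln and urethral Pln, are the least precise. In the main model, p-values rest on a spread between libraries of a group, estimated over all 4 groups together. Spread at E14.5 thus enters the tests at E18.5. The p-values do not measure the spread of differences between paired libraries, as that model leaves pairing out.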

Other observations

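Of the 58 other calcium genes tested between the stages, 20 were called higher and 9 lower at E18.5 in bladder, and 14 higher and 1 lower in urethra, against 4461 and 4136, and 2558 and 2028, of 18805 genes. The difference between these counts was not tested. Itpr3, an inositol trisphosphate receptor, rose in both bladder (1.41 ± 0.16, adjusted p = 4.27e-05) and urethra (1.22 ± 0.16, adjusted p = 0.000514), as did Itpr2 (0.96 ± 0.21, adjusted p = 0.00237, and 1.17 ± 0.21, adjusted p = 0.00219) and Trdn (3.63 ± 0.97, adjusted p = 0.0101, and 4.01 ± 1.11, adjusted p = 0.0232). The chaperone Hspa5 fell in bladder by 0.62 ± 0.18 on the log2 scale (adjusted p = 0.0131), and Calr by 0.40 ± 0.14 (adjusted p = 0.0356). Fkbp1b, a small protein that binds Ryr2, fell in bladder by 1.33 ± 0.28 on the log2 scale (adjusted p = 0.00219), from 6.77 to 2.68 CPM. These genes were chosen after their values were seen, and the p-values are from edgeR's quasi-likelihood test.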
